A study of Bos taurus with 86 samples.

Results

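The genes described are the translation factors and aminoacyl-tRNA synthetases on a bovine cDNA array: each gene whose single symbol in the platform's annotation began with EIF or EEF, or was 1 letter followed by ARS and at most the digit 1 or 2. The choice used names and no measured value. It found 48 of the 4452 genes with 1 symbol, spotted 126 times from 63 cDNA clones. Of these, 42 had enough values to be tested, and the other 6 are given by their values where they occur. The embryos were bovine and singly hybridised, with 14 in the group AI (taken to be artificial insemination), 14 in IVD (a name the labels leave unexplained) and 15 in IVF (taken to be in vitro fertilization). All 3 groups were set against 1 common reference RNA, on 2 arrays per embryo with the dyes exchanged. Embryo RNA was amplified linearly in 3 rounds and the reference RNA in 2, per the labels' protocols. Neither breed, sex, stage nor parents are stated in these sources, so the p-values measure the spread between these embryos.

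Protein synthesis begins when eIF2 brings the initiator transfer RNA to the small ribosomal subunit, eIF3 and the eIF4 factors bring the capped messenger RNA, and the complex scans for the start codon. Elongation factors then carry the ribosome along the message, and aminoacyl-tRNA synthetases supply it with transfer RNAs charged with their amino acids. Kinases that act on eIF2 or on the elongation factor eEF2 slow the process under stress, and in the early embryo the switch from maternal to embryonic messages makes the supply of this machinery part of development.

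Values are log2 ratios of embryo to reference, centred per array, so a value of 1 is a ratio of 2 and a value of 0 is the level of the reference after centring. The direction, embryo over reference, is likely rather than stated: it rests on 14 measured trophectoderm markers, of which 12 of 14 lay above 0 in each group with medians of 2.14 in AI, 1.84 in IVD and 1.67 in IVF. The opposite direction would turn every sign below. Of these trophectoderm markers 1 was higher and 5 lower in IVF than in AI, 4 and 6 in IVD than in AI, and 3 and 5 in IVF than in IVD. Of 2 pluripotency markers 1 was lower in IVF than in AI, 1 higher in IVD than in AI and 1 lower in IVF than in IVD. Among markers of other cells, 4 of cumulus and granulosa cells were measured. Their medians were -0.35, -0.069 and -0.23 in AI, IVD and IVF, and 3 of 4 were higher in IVF than in AI, 1 in IVD than in AI and 2 in IVF than in IVD. The part of these markers in the results was not tested. Oocyte, oviduct and blood lists had 0 tested members. The IVD arrays differed in technical measures, with 1001.5 to 1871.5 spots per embryo lacking a value. AI embryos lacked 3613 to 5713 and IVF embryos 3076.5 to 5099.5. The turned correlation of an embryo's dye-swapped arrays lay between 0.589 and 0.767 for IVD, between 0.816 and 0.912 for AI, and between 0.717 and 0.911 for IVF. In IVD these measures and the group cannot be told apart. In whole embryos, fewer cells of a type and less RNA per cell cannot be told apart either.

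About as large a share of these genes differed between groups as of all genes on the array, but single factors moved by up to 3.64-fold. Between IVF and AI, 18 of 42 genes (42.9%) passed the threshold (adjusted p under 0.05, limma, Benjamini-Hochberg over all 6278 features), beside 37.7% of all features. By direction, 7 were higher and 11 lower in IVF, beside 19.9% and 17.7% of all features. Between IVD and AI, 23 of 42 (54.8%) passed, beside 46.5% of all features, with 14 higher (background 25.5%) and 9 lower (background 21.0%) in IVD. Between IVF and IVD, 20 of 42 (47.6%) passed, beside 47.6% of all features, with 8 higher (background 22.3%) and 12 lower (background 25.2%) in IVF. The comparisons share groups of embryos and are not independent of each other. These shares lie near the background and are not a result about the genes as a set. The counts by role group below have the same background shares and were not tested as sets. In limma's F-test over the 3 groups 30 of 42 passed (71.4%), beside 66.8% of all features.

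Median differences were small too, at -0.067 for IVF minus AI, 0.075 for IVD minus AI and -0.088 for IVF minus IVD, beside 0.041, 0.058 and -0.0088 over all features. The split by direction depended on centring. Taken as deposited, without centring, 19 genes were higher and 3 lower in IVD than in AI, and 3 were higher and 18 lower in IVF than in IVD. The median of all features then moved as well, to 0.32 for IVD minus AI and to -0.27 for IVF minus IVD, where these members had medians of 0.33 and -0.34. Changes below are therefore relative to the bulk of the array.

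**Figure D1:**
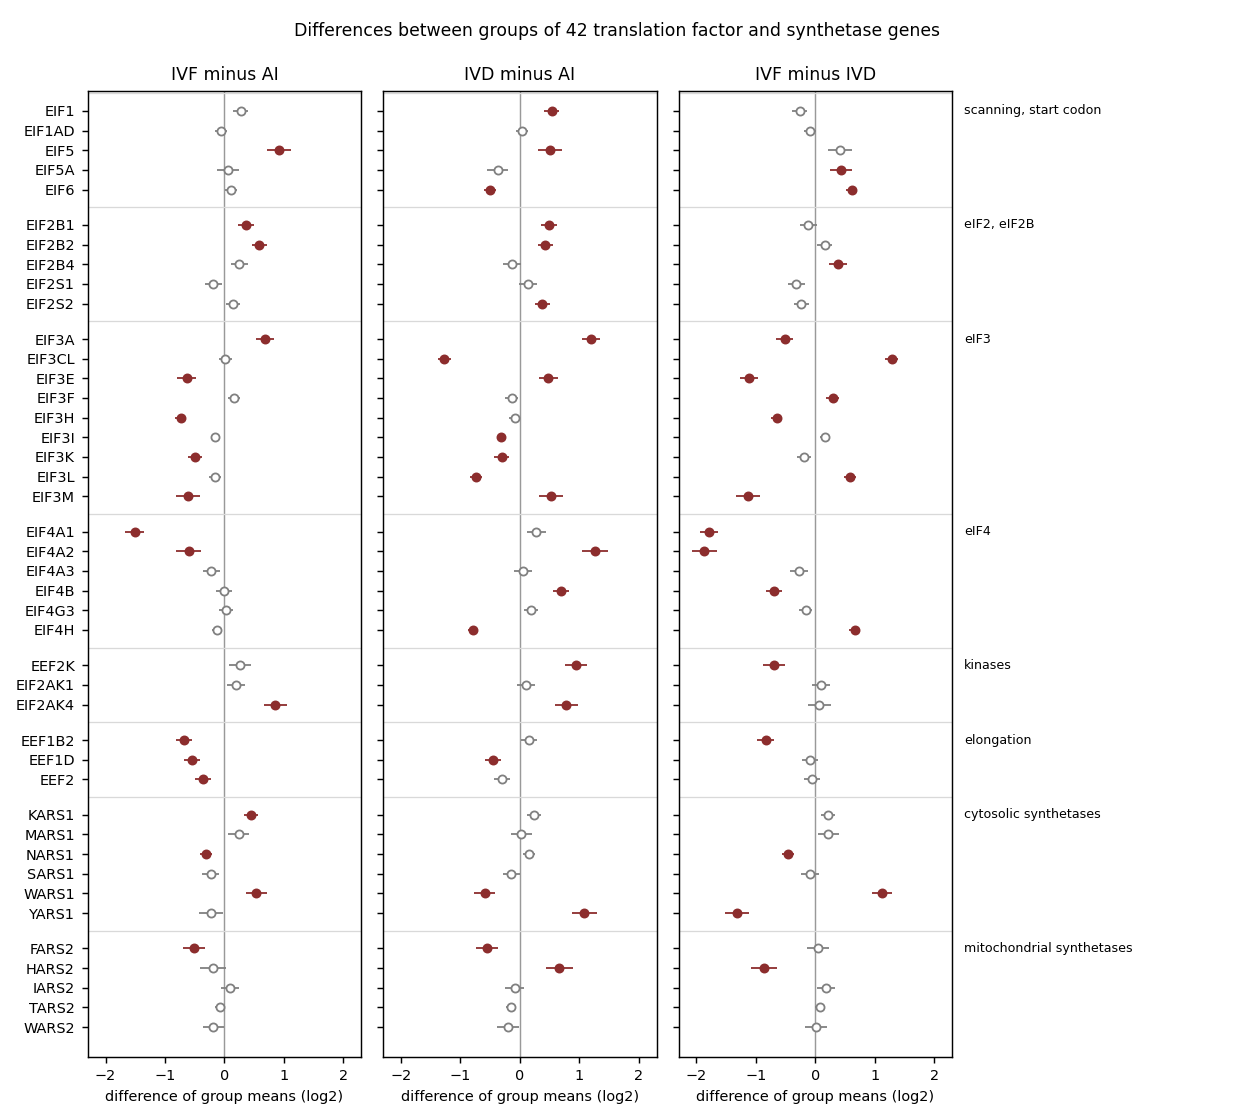
Differences between group means (x axis, log2) of the 42 tested genes (rows, by role) for IVF minus AI, IVD minus AI and IVF minus IVD. Filled points passed limma's adjusted p of 0.05, open points did not, and bars are standard errors; EIF4A1 (-1.51 and -1.79) and EIF4A2 (-1.86) reach farthest to the left, and EIF3CL lies at -1.27 and 1.29 in the panels that involve IVD.

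Both comparisons of IVF embryos were sensitive to a technical property of the arrays. When embryos were grouped by the profile of their dye bias (the part of the ratio that does not turn with the dyes), 1 grouping held 13 AI, 14 IVD and 2 IVF embryos, another 1 AI and 11 IVF embryos, and the smallest the other 2 IVF embryos. With this grouping as a block, 3 of the 18 members stayed past the threshold in IVF against AI. They were EIF2B2 at 0.83 (adjusted p = 0.00446, limma), EIF3H at -0.63 (adjusted p = 0.0241) and EIF4A1 at -1.61 (adjusted p = 0.00175). The other 15 kept their sign without passing, and 2 of them, EIF2B1 (0.19) and EIF4A2 (-0.95), moved by over 1.5 times. Over all features 8.01% then passed. In IVF against IVD 6 of 20 members stayed past the threshold with this block: EIF3CL at 1.03 (adjusted p = 0.00316), EIF3H at -0.56 (adjusted p = 0.0434), EIF4A1 at -1.86 (adjusted p = 1.07e-04), EIF4A2 at -2.28 (adjusted p = 4.96e-04), EIF4H at 0.63 (adjusted p = 0.0161) and YARS1 at -1.62 (adjusted p = 0.00427). The other 14 kept their sign, and 8 of them moved by over 1.5 times: EEF2K (-0.43), EIF2B4 (0.089), EIF3A (-0.27), EIF3E (-0.53), EIF3F (0.47), EIF3L (0.37), EIF5A (0.90) and HARS2 (-0.56). Over all features 13.3% passed in that fit. In IVD against AI all 23 calls were kept, and 49% of all features passed. There the block only set AI embryo 17 apart, since the other AI embryos and all IVD embryos shared 1 grouping. It could therefore hardly change the calls and does not show how dye bias bears on IVD. The grouping nearly follows the groups of embryos, and the block leaves few embryos to set against each other. For the genes lost, dye bias and group therefore cannot be told apart by these fits. For the genes kept, the calls rest on the few embryos that share a grouping, in IVF against IVD on 2 IVF embryos. The settings listed below for single genes mostly leave out this block. Except where 1 dye is named, values below are dye-swap means, which weigh both dye orientations of an embryo equally. Whether the mean removes the dye bias of a gene was not tested.

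Among the 42 genes, the largest difference of IVF embryos from AI was that of EIF4A1, and the largest from IVD that of EIF4A2. EIF4A1 and EIF4A2 encode 2 forms of eIF4A, the RNA helicase that unwinds the 5′ end of the message. EIF4A1 ran from 0.25 to 1.84 in AI (median 1.17), from 0.86 to 1.79 in IVD (median 1.39) and from -0.98 to 0.36 in IVF (median -0.40). Every IVF embryo lay below every IVD embryo, and 13 of 15 lay below the lowest AI embryo. EIF4A1 fell 2.85-fold in IVF against AI (-1.51 ± 0.16 (SE), adjusted p = 6.46e-10, limma) and 3.45-fold against IVD (-1.79 ± 0.16, adjusted p = 1.24e-12). IVD and AI differed by 0.28 ± 0.16 (adjusted p = 0.149), which did not pass. Groups that do not overlap were found for 3.28% of all features between IVF and IVD, and for 3 of the 42 genes here (7.14%): EIF4A1, EIF3H and EIF3CL.

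EIF4A2 had a different order. It ran from -1.46 to 0.48 in AI (median -0.72), from -0.051 to 1.64 in IVD (median 0.59) and from -2.54 to 0.15 in IVF (median -1.16). IVD embryos were high, with 10 of 14 above the highest AI embryo, and in IVF 14 of 15 were under the lowest IVD value. EIF4A2 rose 2.40-fold in IVD against AI (1.26 ± 0.22, adjusted p = 6.94e-06, limma) and fell 3.64-fold in IVF against IVD (-1.86 ± 0.21, adjusted p = 1.6e-09). The smaller difference of IVF from AI, -0.60 ± 0.21 (adjusted p = 0.0234), did not pass with the values as deposited (-0.59, adjusted p = 0.0510) or on the arrays that had the embryo in Cy3 (-0.45, adjusted p = 0.111). EIF4A1 and EIF4A2 are similar in sequence, and the reach of a cDNA spot to the other gene's message was not tested.

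EIF4B and EIF4H, both partners that stimulate the eIF4A helicase, moved in opposite directions in IVD. EIF4B ran from -0.13 to 1.11 in AI (median 0.36), from 0.59 to 1.58 in IVD (median 1.11) and from -0.20 to 1.08 in IVF (median 0.33). It was higher in IVD by 0.69 ± 0.13 than in AI (adjusted p = 5.05e-05, limma) and lower in IVF than in IVD (-0.69 ± 0.13, adjusted p = 2.55e-05), although the ranges overlapped. EIF4H ran from -0.27 to 0.65 in AI (median 0.12), from -0.89 to -0.37 in IVD (median -0.71) and from -0.40 to 0.40 in IVF (median -0.056). All 14 IVD embryos lay below the lowest AI embryo, and 14 of 15 IVF embryos lay above the highest IVD embryo. EIF4H fell in IVD against AI by 0.79 on the log2 scale (SE 0.090, adjusted p = 1.71e-09) and was higher in IVF than in IVD by 0.66 ± 0.088 (adjusted p = 4.43e-08).

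The other eIF4 genes did not pass in any comparison. EIF4A3, the related helicase of the exon junction complex, had differences of -0.22, 0.051 and -0.27 for IVF minus AI, IVD minus AI and IVF minus IVD. EIF4G3, a scaffold that links cap and poly(A) tail, had 0.024, 0.19 and -0.16. As the mean of its 2 clones it lay below the reference in every embryo. Of the 6 genes of the eIF4 role group, 0 were higher and 2 lower in IVF than in AI, 2 higher and 1 lower in IVD than in AI, and 1 higher and 3 lower in IVF than in IVD. Without centring these counts were 0 and 1, 4 and 1, and 1 and 5.

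**Figure D2:**
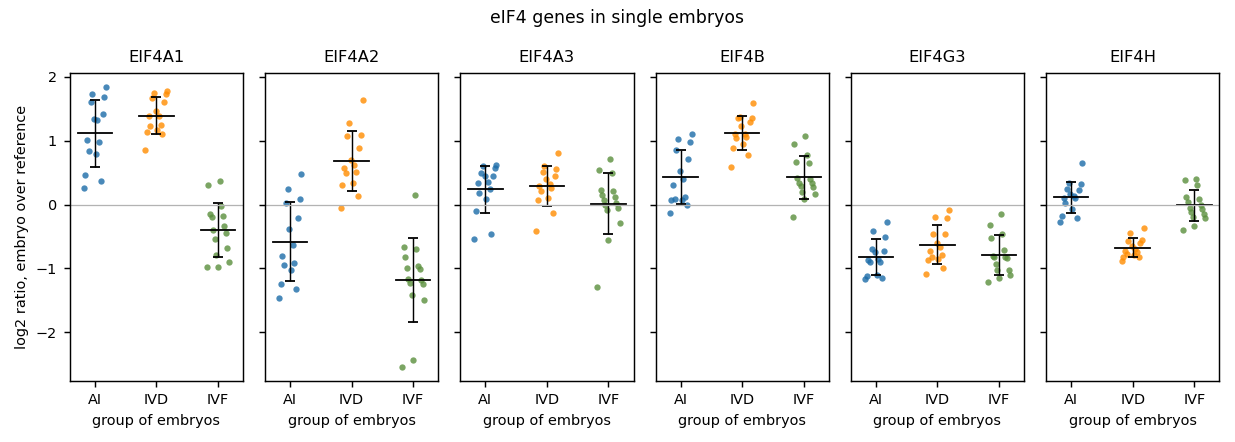
Log2 ratio of embryo to reference (y axis) of the 6 eIF4 genes in each embryo of AI, IVD and IVF (x axis); each point is 1 embryo, the long bar the mean and the error bar 1 SD. IVF embryos are low for EIF4A1 (highest 0.36), IVD embryos are high for EIF4A2 (median 0.59) and low for EIF4H (highest -0.37), and EIF4A3 and EIF4G3 overlap in all 3 groups.

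The subunits of eIF3, the largest initiation factor and the platform that binds the small ribosomal subunit, did not move as 1 unit. Of 10 subunit genes on the array 9 were tested, and 1 was higher and 4 lower in IVF than in AI, 3 higher and 4 lower in IVD than in AI, and 3 higher and 4 lower in IVF than in IVD. Taken as deposited, the values gave 1 and 4, 3 and 2, and 1 and 5. The median difference of the 9 genes was -0.16, -0.14 and -0.19 in the 3 comparisons, while single subunits ran from -1.27 (EIF3CL) to 1.20 (EIF3A) for IVD minus AI.

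EIF3CL was low in IVD alone, apart from both other groups. It ran from 0.18 to 1.20 in AI (median 0.66), from -1.19 to -0.18 in IVD (median -0.70) and from 0.13 to 1.14 in IVF (median 0.68). IVD embryos lay below 0 and all AI and IVF embryos above 0, so IVD overlapped neither group. EIF3CL fell 2.41-fold in IVD against AI (-1.27 ± 0.11, adjusted p = 3.47e-12, limma) and was 2.44-fold higher in IVF than in IVD (1.29 ± 0.11, adjusted p = 9.04e-13). IVF and AI differed by 0.017 ± 0.11. EIF3CL is a near-identical copy of EIF3C, the core subunit c, so the spot cannot be assigned to 1 of these genes. EIF3L was also low in IVD. It ran from 0.087 to 1.02 in AI (median 0.58), from -0.53 to 0.23 in IVD (median -0.14) and from 0.043 to 0.84 in IVF (median 0.43). It was lower in IVD than in AI (-0.74 ± 0.10, adjusted p = 1.6e-07) and higher in IVF than in IVD (0.58 ± 0.10, adjusted p = 6.79e-06), and 12 of 14 IVD embryos were under the lowest AI value. The second of these did not pass with the values as deposited (0.33, adjusted p = 0.112).

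EIF3A, the large scaffold subunit, was highest in IVD. It was measured in 9 AI, 11 IVD and 13 IVF embryos and ran from -0.78 to 0.44 in AI (median -0.25), from 0.81 to 1.16 in IVD (median 1.00) and from -0.28 to 1.10 in IVF (median 0.54). Every measured IVD embryo lay above every measured AI embryo. EIF3A rose 2.29-fold in IVD against AI (1.20 ± 0.16, adjusted p = 1.7e-07, limma) and rose in IVF against AI (0.68 ± 0.15, adjusted p = 6.53e-04), and IVF lay below IVD (-0.51 ± 0.14, adjusted p = 0.00342). Between IVD and AI 2.84% of all features did not overlap, and 3 of the 42 genes did not (7.14%): EIF3A, EIF3CL and EIF4H. Between IVF and AI the share was 0.542% of all features and 0 of the 42 genes.

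A second set of subunits was low in IVF. EIF3H, whose product lies in the octamer core of the complex, ran from 0.18 to 0.93 in AI (median 0.62), from 0.26 to 0.75 in IVD (median 0.49) and from -0.87 to 0.22 in IVF (median -0.12). No IVF embryo reached the lowest IVD embryo, and 13 of 15 lay below the lowest AI embryo. EIF3H fell in IVF against AI (-0.74 ± 0.092, adjusted p = 4.57e-08, limma) and against IVD (-0.65 ± 0.092, adjusted p = 1.38e-07). EIF3E, another octamer subunit, was measured in 13 AI, 13 IVD and 14 IVF embryos and ran from 0.39 to 1.40 in AI (median 0.86), from 0.68 to 1.83 in IVD (median 1.27) and from -0.99 to 0.79 in IVF (median 0.34). It differed in all 3 comparisons, by -0.64 ± 0.15 for IVF minus AI (adjusted p = 0.00118), by 0.48 ± 0.16 for IVD minus AI (adjusted p = 0.0113) and by -1.11 ± 0.15, or 2.17-fold, for IVF minus IVD (adjusted p = 1.17e-07). The groups overlapped at their edges, with 9 of 14 IVF embryos below the lowest AI embryo.

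EIF3M, which forms a module with EIF3F and EIF3H, had the same order with a wider spread. It ran from -0.63 to 0.73 in AI (median 0.36), from 0.41 to 1.36 in IVD (median 0.79) and from -2.21 to 0.62 in IVF (median -0.18). IVF embryos 1 and 7, at -2.21 and -2.18, lay far below the other IVF embryos, whose lowest was -0.56. EIF3M was lower in IVF than in AI (-0.61 ± 0.20, adjusted p = 0.0149, limma), higher in IVD than in AI (0.53 ± 0.20, adjusted p = 0.0305) and 2.20-fold lower in IVF than in IVD (-1.14 ± 0.20, adjusted p = 8.54e-06). Without IVF embryos 1, 7 and 11 the difference of IVF from AI was -0.38 (adjusted p = 0.0183). The call of IVF against AI was lost on the arrays that had the embryo in Cy5, and that of IVD against AI on those with the embryo in Cy3 alone.

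Among the remaining subunits the differences were smaller. EIF3K was lower in IVF (-0.49 ± 0.12, adjusted p = 0.00145, limma) and in IVD (-0.31 ± 0.12, adjusted p = 0.0386) than in AI, the second of these lost under 5 of 13 other settings. EIF3I was lower in IVD than in AI (-0.32 ± 0.073, adjusted p = 5.06e-04) and EIF3F higher in IVF than in IVD (0.29 ± 0.10, adjusted p = 0.0181), both lost with the values as deposited (-0.062 and 0.058). EIF3B, an RNA-binding core subunit, had a value in 1 IVD embryo (-0.84) and in 0 of the others, so it was not tested.

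**Figure D3:**
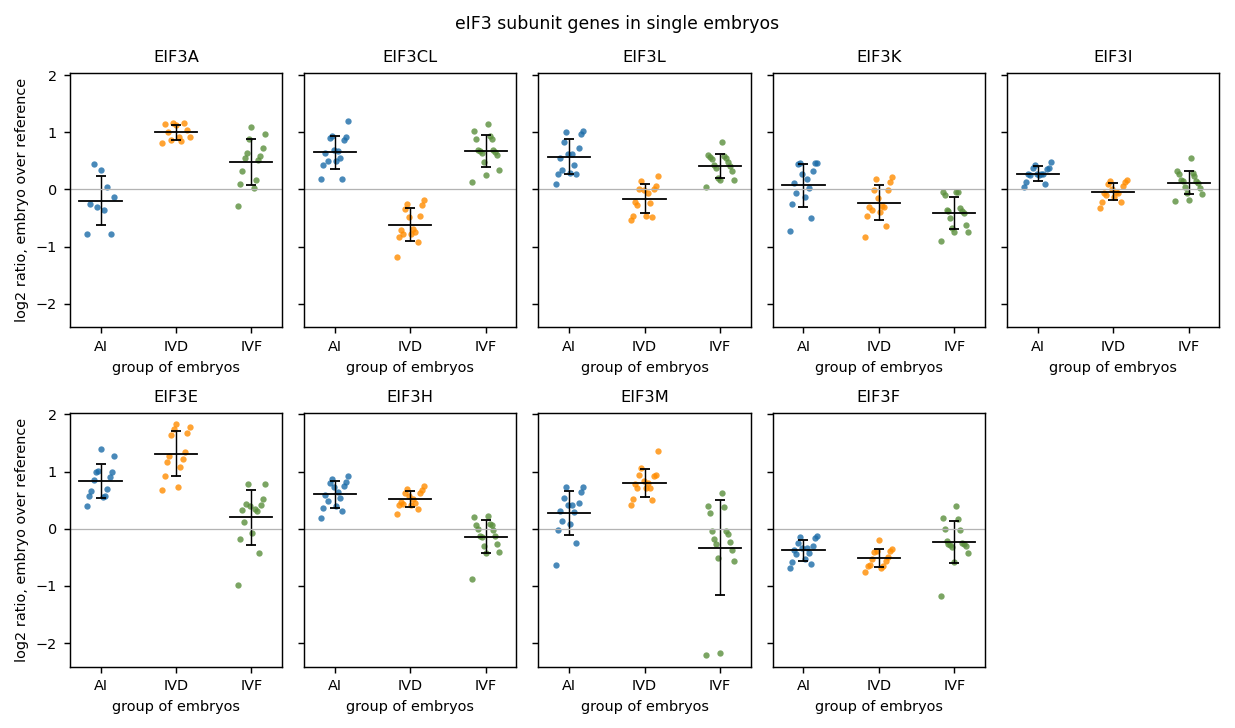
Log2 ratio of embryo to reference (y axis) of the 9 tested eIF3 subunit genes in each embryo of AI, IVD and IVF (x axis); each point is 1 embryo, the long bar the mean and the error bar 1 SD. IVD embryos stand below both other groups for EIF3CL (highest -0.18) and above AI for EIF3A (lowest 0.81), and IVF embryos stand below IVD for EIF3H (highest 0.22).

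After centring, genes of eIF2 and its exchange factor eIF2B were higher in each comparison where they passed. eIF2B reloads eIF2 with GTP and is the step that eIF2 kinases block. Of 6 genes on the array 5 were tested, and 2 were higher and 0 lower in IVF than in AI, 3 and 0 in IVD than in AI, and 1 and 0 in IVF than in IVD. Without centring the counts were 1 and 0, 4 and 0, and 0 and 2, so the direction between IVF and IVD depended on centring. EIF2B2, the beta subunit of eIF2B, ran from -0.63 to 0.23 in AI (median 0.063), from -0.11 to 0.87 in IVD (median 0.52) and from -0.69 to 1.27 in IVF (median 0.63). In IVF 14 of 15 embryos lay above the highest AI embryo, and IVF embryo 7 lay below the lowest. EIF2B2 rose in IVF against AI by 0.59 ± 0.12 (adjusted p = 2.45e-04, limma) and in IVD against AI by 0.43 ± 0.13 (adjusted p = 0.00464). On the arrays that had the embryo in Cy5 both differences kept their sign without passing (0.49, adjusted p = 0.0573, and 0.47, adjusted p = 0.0623).

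Among the other genes of this role group, EIF2B1, the regulatory alpha subunit, was higher in IVF (0.37 ± 0.14, adjusted p = 0.0293, limma) and in IVD (0.48 ± 0.14, adjusted p = 0.00345) than in AI, and the former was lost under 6 of 12 other settings, among them the values as deposited. The latter was lost on the arrays that had the embryo in Cy5 (0.17, adjusted p = 0.344). EIF2B4, the delta subunit, was higher in IVF than in IVD (0.38 ± 0.15, adjusted p = 0.0284), though not with the values as deposited (0.15) or on the arrays that had the embryo in Cy3 (0.19). EIF2S2, which encodes eIF2 beta, was higher in IVD than in AI (0.38 ± 0.13, adjusted p = 0.0128), a call lost on the arrays that had the embryo in Cy3 (0.21, adjusted p = 0.182). EIF2S1, which encodes the alpha subunit that the kinases phosphorylate, passed in no comparison, with differences of -0.19, 0.13 and -0.32. EIF2D, an alternative carrier of initiator transfer RNA, had values in 2 AI, 11 IVD and 4 IVF embryos and was not tested.

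Of the 3 kinases, 2 differed. EIF2AK4 encodes GCN2, the eIF2 kinase activated by uncharged transfer RNA. It ran from -1.64 to 0.66 in AI (median -0.68), from -0.39 to 0.88 in IVD (median 0.15) and from -0.49 to 1.10 in IVF (median 0.18). AI embryos were low on the whole but overlapped the others, and all IVD and IVF embryos lay above the AI mean of -0.61. EIF2AK4 rose in IVF (0.85 ± 0.19, adjusted p = 5.99e-04, limma) and in IVD (0.78 ± 0.20, adjusted p = 0.00118) against AI. EEF2K encodes the kinase that inhibits eEF2 and with it elongation. It ran from -3.76 to -1.15 in AI (median -2.16), from -1.95 to -0.73 in IVD (median -1.52) and from -2.79 to -1.56 in IVF (median -2.23). EEF2K was higher in IVD than in AI (0.95 ± 0.19, adjusted p = 6.88e-05) and lower in IVF than in IVD (-0.69 ± 0.18, adjusted p = 0.00199), and all 14 IVD embryos exceeded the AI mean. On the arrays that had the embryo in Cy5 the difference of IVF from IVD was -0.27 and did not pass (adjusted p = 0.381), and in Cy3 it was -1.13 (adjusted p = 9.61e-05). For EIF2AK4 and EEF2K 1 of 2 clones was kept, since the other had values in at most 2 AI embryos. The EIF2AK4 clone not kept (2 AI, 14 IVD and 3 IVF embryos) gave -0.38 for IVF minus AI and -0.050 for IVD minus AI. That of EEF2K (1 AI, 14 IVD and 2 IVF embryos) gave -0.35 for IVD minus AI and 0.87 for IVF minus IVD. These signs are opposite to those of the kept clones, on few AI and IVF embryos. EIF2AK1, the heme-regulated kinase, had differences of 0.20, 0.098 and 0.10, and none passed.

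The role group of scanning and start codon factors, in which EIF6 and EIF5A were also placed, had 5 of 6 genes tested. Of these, 1 was higher and 0 lower in IVF than in AI, and 2 and 1 in IVD than in AI. Between IVF and IVD 2 were higher and 0 lower in IVF, the 2 being EIF5A and EIF6. Without centring the counts were 1 and 0, 2 and 0, and 0 and 1. EIF5 had the largest difference and encodes the factor that triggers GTP hydrolysis by eIF2 at the start codon. It ran from 0.77 to 2.68 in AI (median 2.07), from 1.32 to 3.64 in IVD (median 2.36) and from 1.16 to 3.42 in IVF (median 3.03). In IVF 12 of 15 embryos lay above the highest AI embryo. EIF5 rose 1.89-fold in IVF against AI (0.92 ± 0.20, adjusted p = 4.52e-04, limma). It was higher in IVD than in AI by 0.51 ± 0.21 (adjusted p = 0.0397), a call lost with quantile normalization (0.38, adjusted p = 0.138) and on the arrays that had the embryo in Cy3 (0.33, adjusted p = 0.169).

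EIF6, which keeps large ribosomal subunits from joining too early, was low in IVD. It ran from -0.43 to 0.53 in AI (median 0.11), from -0.93 to 0.11 in IVD (median -0.43) and from -0.14 to 0.52 in IVF (median 0.18). It was lower in IVD than in AI by -0.50 ± 0.10 (adjusted p = 7.69e-05, limma) and higher in IVF than in IVD by 0.61 ± 0.098 (adjusted p = 1.73e-06), with overlapping ranges in which 7 of 14 IVD embryos lay below every AI embryo. Neither passed in the values as deposited (-0.24, adjusted p = 0.231, and 0.36, adjusted p = 0.0661). EIF1, which guards start codon choice, was higher in IVD than in AI by 0.54 ± 0.13 (adjusted p = 5.84e-04). EIF1AD, a protein with an eIF1A-like domain, passed in no comparison (-0.057, 0.032 and -0.089). EIF1AX, which encodes eIF1A itself, had a value in 2 IVD embryos and in 0 of the others.

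EIF5A, whose hypusine-bearing product helps the ribosome through difficult peptide bonds, gave results that depended on the dye. It ran from -0.90 to 1.43 in 12 AI embryos (median 0.15), from -0.64 to 0.14 in 14 IVD embryos (median -0.24) and from -0.35 to 1.64 in 12 IVF embryos (median 0.051). IVF lay above IVD by 0.43 ± 0.18 (adjusted p = 0.0447, limma). On the arrays that had the embryo in Cy3 the sign turned (-0.29, adjusted p = 0.194). Between IVF and AI, EIF5A differed by -0.47 in Cy3 (adjusted p = 0.0421) and by 0.67 in Cy5 (adjusted p = 0.0388), against 0.057 for the dye-swap mean. Its direction thus depended on the dye.

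All 3 tested genes of the elongation factor role group were lower in IVF than in AI, beside 17.7% of all features. EIF5A, placed in another role group although its product acts on the elongating ribosome, was not lower (0.057, adjusted p = 0.829, limma). EEF1B2, the beta subunit of the exchange factor that recharges eEF1A, ran from 0.28 to 1.07 in AI (median 0.49), from 0.13 to 1.22 in IVD (median 0.70) and from -1.50 to 0.47 in IVF (median 0.016). In IVF 13 of 15 embryos lay below the lowest AI embryo and 11 of 15 below the lowest IVD embryo. EEF1B2 fell in IVF against AI (-0.68 ± 0.14, adjusted p = 1.66e-04, limma) and against IVD (-0.83 ± 0.14, adjusted p = 3.18e-06). EEF1D, the delta subunit of the same complex, was lower in IVF (-0.54 ± 0.13, adjusted p = 0.00136) and in IVD (-0.45 ± 0.14, adjusted p = 0.00584) than in AI, the latter lost with the values as deposited (-0.20). EEF2, the translocase that moves the ribosome by a codon, was lower in IVF than in AI by -0.36 ± 0.13 (adjusted p = 0.0296), and IVD minus AI was -0.30 ± 0.13 (adjusted p = 0.0629). The EEF2 call was lost with the values as deposited and on the arrays that had the embryo in Cy3 (-0.23). In the values as deposited 2 of the 3 genes passed in IVF against AI, and with the dye-bias block 0 of 3, at a median of -0.53. EEF1E1, named as an elongation factor but known as a scaffold of the synthetase complex, had values in 2 AI, 13 IVD and 2 IVF embryos and was not tested.

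The cytosolic synthetases moved singly. Of 7 genes on the array 6 were tested, and 2 were higher and 1 lower in IVF than in AI, 1 and 1 in IVD than in AI, and 1 and 2 in IVF than in IVD. The values as deposited gave 1 and 0, 3 and 0, and 1 and 2. YARS1, which charges tyrosine transfer RNA, ran from -2.77 to -0.48 in AI (median -1.49), from -1.29 to 0.24 in IVD (median -0.30) and from -2.65 to -0.83 in IVF (median -1.68). IVD embryos were high, with 9 of 14 above the highest AI embryo, and in IVF 14 of 15 were under the lowest IVD value. YARS1 rose 2.12-fold in IVD against AI (1.09 ± 0.21, adjusted p = 3.83e-05, limma) and fell 2.49-fold in IVF against IVD (-1.31 ± 0.20, adjusted p = 8.54e-07).

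WARS1, the tryptophan enzyme and an interferon-inducible gene, had the opposite order. It ran from -2.59 to -0.26 in 12 AI embryos (median -1.20), from -2.41 to -1.09 in 14 IVD embryos (median -1.69) and from -1.24 to 0.25 in 14 IVF embryos (median -0.62). In IVF 11 of 14 measured embryos lay above the highest IVD embryo, while AI spanned most of both ranges. WARS1 was 2.18-fold higher in IVF than in IVD (1.12 ± 0.17, adjusted p = 8.84e-07, limma). It was higher in IVF than in AI by 0.53 ± 0.18 (adjusted p = 0.0168) and lower in IVD than in AI by -0.59 ± 0.18 (adjusted p = 0.00670), and neither passed with the values as deposited (0.53, adjusted p = 0.0654, and -0.29, adjusted p = 0.268). Without IVF embryos 1, 7 and 11 the difference of IVF from AI was 0.42 (adjusted p = 0.0660).

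KARS1, the lysine enzyme, ran from -0.82 to 0.30 in AI (median -0.12), from -0.32 to 0.45 in IVD (median 0.13) and from -0.53 to 0.89 in IVF (median 0.33). It was higher in IVF than in AI by 0.44 ± 0.11 (adjusted p = 0.00225, limma), with 8 of 15 IVF embryos above the highest AI embryo. NARS1, the asparagine enzyme, was above the reference in every embryo as the mean of its 2 clones. It was lower in IVF than in IVD (-0.46 ± 0.10, adjusted p = 1.87e-04, limma) and in AI (-0.31 ± 0.10, adjusted p = 0.0141). The difference of NARS1 from AI came from 1 of its 2 clones, and with the single best-measured spot it was 0.021 (adjusted p = 0.898). MARS1 and SARS1, for methionine and serine, passed in no comparison. VARS1, for valine, was measured in 5 AI, 14 IVD and 13 IVF embryos, with medians of 1.06, 0.26 and 0.81, and was not tested.

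**Figure D4:**
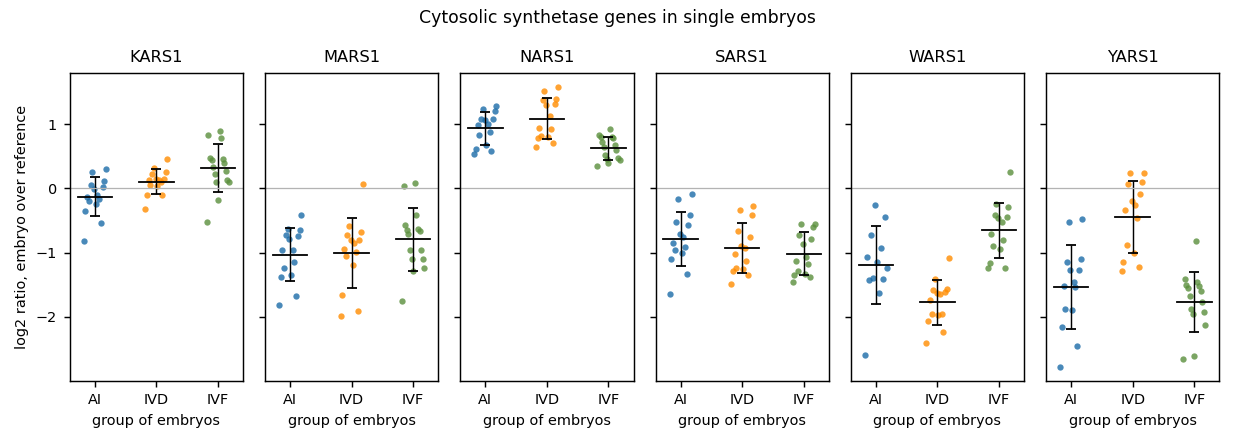
Log2 ratio of embryo to reference (y axis) of the 6 tested cytosolic synthetase genes in each embryo of AI, IVD and IVF (x axis); each point is 1 embryo, the long bar the mean and the error bar 1 SD. IVD embryos are high for YARS1 (median -0.30) and low for WARS1 (median -1.69), and MARS1 and SARS1 overlap in all groups.

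Of the mitochondrial synthetases, which serve the translation of messages made within the organelle, 5 of 6 were tested. None was higher and 1 was lower in IVF than in AI, 1 was higher and 1 lower in IVD than in AI, and 0 were higher and 1 lower in IVF than in IVD. In the values as deposited the counts were 0 and 0, 1 and 0, and 0 and 1. HARS2, for histidine, ran from -1.59 to 0.56 in AI (median -0.32), from -0.41 to 1.08 in IVD (median 0.17) and from -2.98 to 0.63 in IVF (median -0.51). IVD embryos were high but overlapped both groups, and the lowest value was that of IVF embryo 11. HARS2 was higher in IVD than in AI by 0.67 ± 0.22 (adjusted p = 0.0124, limma) and lower in IVF than in IVD by -0.86 ± 0.22 (adjusted p = 0.00118).

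FARS2, for phenylalanine, ran from -0.14 to 1.59 in 13 AI embryos (median 0.71), from -0.59 to 0.83 in 14 IVD embryos (median 0.0015) and from -1.13 to 1.17 in 13 IVF embryos (median 0.041). It was lower than in AI both in IVF (-0.51 ± 0.19, adjusted p = 0.0305, limma) and in IVD (-0.55 ± 0.19, adjusted p = 0.0143), with overlapping ranges. Neither passed with the values as deposited (-0.49, adjusted p = 0.123, and -0.27, adjusted p = 0.339), and the difference of IVF from AI was lost in 6 of 12 other settings, with values from -0.81 to -0.11. That of IVD from AI was lost in Cy3 as well (-0.19, adjusted p = 0.454). Between IVF and IVD the dyes gave opposite differences for FARS2, -0.63 in Cy3 and 0.71 in Cy5. IARS2, TARS2 and WARS2, for isoleucine, threonine and tryptophan, passed in no comparison, and WARS2 lay above the reference in every embryo. CARS2, for cysteine, was measured in 1 AI, 14 IVD and 10 IVF embryos and was not tested.

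For 9 of the tested genes more than 1 clone was kept, which gives a second look at the same message. Both clones of EIF4A1 fell in IVF, by 1.69 and by 1.39 on the log2 scale against AI and by 1.89 and by 1.75 against IVD. The 3 clones of EEF2 (-0.33, -0.34 and -0.41) and both of KARS1 (0.39 and 0.49) lay close together for IVF minus AI. The clones of 6 genes differed in sign in at least 1 comparison, EEF2 (0.019, -0.090 and -0.10 for IVF minus IVD) and MARS1 (0.062 and -0.016 for IVD minus AI) by little. Those of EIF1 gave -0.84 and 0.38 for IVF minus IVD, and its difference of IVD from AI was 0.89 in 1 clone and 0.13 in the other. Those of EIF4G3 gave -0.25 and 0.29 for IVF minus AI. Those of EIF4H had the same direction for IVD minus AI (-1.03 and -0.44) but not for IVF minus AI (0.10 and -0.29), and for IVF minus IVD 1 clone gave 1.13 and the other 0.14. Those of NARS1 gave -0.60 and -0.0082 for IVF minus AI, and -0.036 and 0.37 for IVD minus AI. Whether such clones reach different transcripts was not tested. Duplicate spots of a clone differed little, by a median of 0.074 over 63 pairs.

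**Figure D5:**
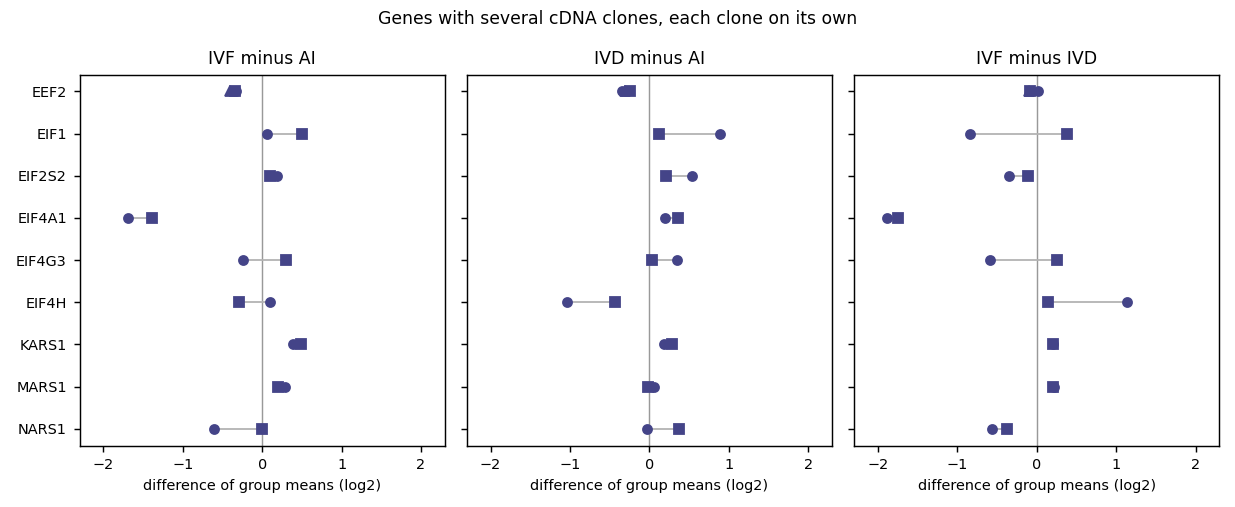
Differences between group means (x axis, log2) of each cDNA clone of the 9 genes with several clones (rows) for IVF minus AI, IVD minus AI and IVF minus IVD; each symbol is 1 clone and the line joins the clones of a gene. The clones lie close together for EEF2, KARS1 and MARS1 and on either side of 0 for EIF1 (-0.84 and 0.38) and EIF4G3 in IVF minus IVD.

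Across the 3 comparisons, 10 of 42 genes passed in none, 8 in 1, 19 in 2 and 5 in all 3. The 5 were EIF3A, EIF3E, EIF3M, EIF4A2 and WARS1. EIF3E, EIF3M and EIF4A2 shared the order IVF below AI below IVD, WARS1 had IVD below AI below IVF, and EIF3A had AI below IVF below IVD. Against the reference, as means of the kept clones, EIF2B4, EIF5, NARS1 and WARS2 lay above 0 in every embryo measured, whatever its group. EEF2, EEF2K, EIF4G3 and SARS1 lay below 0 in every embryo measured. Single clones need not follow: those of EIF4G3 averaged -1.55 and -0.032 in IVF (SD 0.51 and 0.26). Another clone of EIF5, not kept, averaged -0.47 in 4 IVD embryos and had no value in AI or IVF.

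Embryos of a group varied about as much in these genes as in the rest of the array. The median SD between embryos was 0.37 in AI, 0.31 in IVD and 0.39 in IVF, beside 0.40, 0.33 and 0.42 over all features. The least variable were EIF3I in AI (SD 0.12), EIF3A in IVD (0.13) and NARS1 in IVF (0.18), and the most variable EEF2K in AI (0.73), EIF5 in IVD (0.61) and EIF3M in IVF (0.83). Over the 32 genes measured in every embryo, the embryo medians ran from 0.088 to 0.39 in AI, from 0.015 to 0.42 in IVD and from -0.18 to 0.35 in IVF, so the groups overlapped widely. IVF embryos 1, 7 and 11 had the lowest correlations with the mean of the other IVF embryos over these genes (0.740, 0.824 and 0.804, a description across genes), while the lowest of any other embryo was 0.854. Without these 3 embryos 16, 25 and 23 genes passed in IVF against AI, IVD against AI and IVF against IVD. Of all features 36.7%, 49.6% and 45.6% then passed. The calls of EIF2B1, FARS2 and WARS1 in the first comparison and of EIF5A in the last were lost.

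Leaving out 1 embryo at a time ended 8 of the calls. In IVF against AI these were EEF2 (without AI embryo 5, 7, 8, 13 or 15 or IVF embryo 9 or 13; differences of -0.43 to -0.30, adjusted p up to 0.0608, limma), EIF2B1 (without AI embryo 8 or 15 or IVF embryo 11; 0.28 to 0.41, adjusted p up to 0.0629) and FARS2 (without AI embryo 14 or IVF embryo 10, 11 or 19; -0.60 to -0.41, adjusted p up to 0.0658). In IVD against AI they were EIF3M (without AI embryo 6 or H1 or IVD embryo 6; 0.46 to 0.56, adjusted p up to 0.0593), EIF3K (any of 14 embryos; -0.37 to -0.26, adjusted p up to 0.0791) and EIF5 (any of 11 embryos; 0.42 to 0.60, adjusted p up to 0.0861). In IVF against IVD they were EIF2B4 (without IVD embryo 2 or IVF embryo 1, 9 or 18; 0.33 to 0.44, adjusted p up to 0.0560) and EIF5A (any of 14 embryos; 0.30 to 0.48, adjusted p up to 0.114). None of these 8 differences changed sign.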

How the data were processed

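The authors deposited 1 table of log2 ratios with 16416 spots and 86 arrays; how spots were read, corrected and normalized is not stated in the sources used here. Values over 16 were set to missing, and 20.1% of values were missing in all. Arrays were median-centred over the 5558 spots that every array measured, those with Cy3 on the embryo were turned in sign, and an embryo's 2 arrays were averaged. Spots with both values in at least 7 embryos of every group were kept (10757), and spots of 1 symbol were averaged into 6278 features. Symbols came from the platform's annotation, and all 48 gene identifiers matched RefSeq. Group means were compared with limma 3.58.1 (R 4.3.3; two-sided, moderated, Benjamini-Hochberg, threshold 0.05), checked on simulated data; errors beside differences are SE. Figures used matplotlib 3.10.9.

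Named with values by embryo were, per comparison, the 6 highest and 6 lowest changes past the threshold and the largest change of each role group, plus at most 3 other translation genes per comparison. The members follow from the name rule, while their role groups and the list of other translation genes were written with earlier results of these data known. Alternatives were other centring, quantile normalization, 1 dye alone, other spot filters, 1 spot per gene, a replicate block, averaging IVD embryos 12_1 to 12_4 (which share a number), a dye-bias block and, added after seeing the data, leaving out embryos and the dye-bias block between IVD and the other groups.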

Additional observations from a re-analysis of the deposited data

How the results depend on the processing

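Each comparison was refitted under 13 other settings. Restricting the genes to spots measured in every embryo left 28 members, of which 10 passed in IVF against AI and 11 in IVF against IVD. Of all features 44.5% and 53.2% passed in these fits, and 14 genes were not tested. With the dye-bias grouping as a block 3 members passed in IVF against AI and 6 in IVF against IVD, where the median change of the members was -0.206; the block between IVD and the other groups was added after seeing the data. With the values as deposited, the median change of the members was 0.329 for IVD against AI and -0.336 for IVF against IVD. NARS1 turned to 0.021 in IVF against AI with its best-measured spot, and EIF5A to -0.29 in IVF against IVD on the arrays that had the embryo in Cy3; the cause was not tested beyond the clones of NARS1. Leaving out each embryo in turn gave 16 to 20 members in IVF against AI, 20 to 25 in IVD against AI and 18 to 23 in IVF against IVD. Embryo numbers did not pair the embryos between groups: of 21 same-numbered pairs 3 correlated above 0.1 (median 0.0057, highest 0.21). With the number as a replicate block 18, 23 and 20 members passed and no call changed. That block held IVD embryos 12_1 to 12_4 as separate, although these correlated at -0.14 to 0.42. With these 4 averaged, 18, 23 and 19 calls were kept, EIF5A being lost in IVF against IVD. Whether they are independent embryos was not tested. EIF1, EIF3CL, EIF3H, EIF4A1, EIF4H and YARS1 kept their calls under every setting that gave them a value. No setting took the clone with the smaller difference alone, at 0.13 for EIF1 (IVD minus AI) and 0.14 for EIF4H (IVF minus IVD). The number of arrays limits the precision, and no spot intensity was used, so signal over background is unknown.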

Other observations

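Some translation genes outside the name rule also differed between groups. The list held 21 measured genes, of which 3 were higher and 4 lower in IVF than in AI, beside 19.9% and 17.7% of all features. In IVD against AI 6 were higher and 4 lower, beside 25.5% and 21.0%. In IVF against IVD 9 were higher and 8 lower, beside 22.3% and 25.2%. Median differences were -0.11, 0.016 and 0.079, and the list was not tested as a set. Whether the calls of these genes hold under the other settings was not examined. With the dye-bias block 8.01% of all features passed in IVF against AI and 13.3% in IVF against IVD. PAIP2, an inhibitor of the poly(A)-binding protein, was lower in IVF than in AI (-0.95 ± 0.15, adjusted p = 2.32e-06, limma) and than in IVD (-1.20 ± 0.15, adjusted p = 6.52e-09). GSPT1, the release factor eRF3a, was higher in IVF than in AI (0.75 ± 0.10, adjusted p = 4.47e-07). PPP1R15B, which directs the phosphatase that reactivates eIF2, was higher in IVF than in AI too (0.55 ± 0.12, adjusted p = 5.15e-04). PPP1R15A, with the same role and named after its values were seen, was lower in IVF than in AI (-0.34 ± 0.12, adjusted p = 0.0192).

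Against AI, the IVD embryos were low in 4 of these genes. TUFM, the mitochondrial elongation factor, differed by -1.16 ± 0.15 (adjusted p = 2.06e-08, limma). AIMP2, a scaffold of the multi-synthetase complex, differed by -0.95 ± 0.15 (adjusted p = 1.16e-06), and IVF lay above IVD by 1.05 ± 0.14 (adjusted p = 8.77e-08). RACK1, a ribosomal scaffold, differed by -0.85 ± 0.10 (adjusted p = 6.32e-09), and PPP1R15A by -0.83 ± 0.12 (adjusted p = 1.74e-07). DHX29, a helicase for structured leaders, was lower in IVF than in IVD by -1.09 ± 0.16 (adjusted p = 5.32e-07).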
